A study of Mus musculus with 12 samples.

Results

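The major histocompatibility complex (MHC) genes of the mouse liver were taken as every gene of the 2 deposited expression tables whose symbol begins with H2- followed by a class I or class II name (Aa, Ab, Bl, D1, DM, Ea, Eb, K1, M, O, Pb, Q or T), together with B2m, Cd74 and Ciita. The rule found 40 of 41743 genes. These were the 2 classical class I heavy chains H2-K1 and H2-D1, the light chain B2m, 25 nonclassical class I genes, 11 class II genes and the class II regulator Ciita. On GRCm38, 37 of the 40 lay on chromosome 17 between positions 33996017 and 37483552, with Ciita on chromosome 16, Cd74 on chromosome 18 and B2m on chromosome 2. GENCODE M21 lists 36 of them as protein-coding and H2-Bl, H2-Ea-ps, H2-Q5 and H2-T10 as polymorphic pseudogenes.

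RNA was sequenced from the whole livers of 12 female mice aged 3 to 4 months, in 4 groups of 3. YAP KO mice (labelled YAP1 KO; homozygous for floxed Yap1 and for a floxed-stop EYFP reporter, with Foxa3-Cre) and their wild-type (WT) littermates were C57BL/6, and YAP KO TAZ HET mice (labelled YAP1 KO TAZ Heterozygote; Foxa3-Cre, both Yap1 copies and 1 copy of Wwtr1, the TAZ gene, deleted) and their WT littermates were mixed C57BL/6-FVB. Foxa3-Cre acts chiefly in the foregut endoderm that gives rise to hepatocytes and bile duct cells. Yap1 was not measured by cell type, and the animals were bred by backcrosses to the floxed founders. Each model was compared with its own littermates, so genotype is compared within a background, whereas the 2 models differ from each other in both TAZ and background.

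MHC class I molecules consist of a heavy chain and the light chain B2m, are made by nearly every nucleated cell, and display peptides from inside the cell to CD8 T cells and natural killer cells. MHC class II molecules are pairs of alpha and beta chains made chiefly by macrophages, dendritic cells and B cells; Cd74, the invariant chain, escorts them to endosomes, where H2-DM exchanges the Cd74 remnant for a peptide that is shown to CD4 T cells. In the liver, Kupffer cells are the resident macrophages, and hepatocytes make large amounts of class I, including the secreted molecule H2-Q10.

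Promoters of both classes are known for a shared module, an X box followed by an inverted Y box, at which Ciita acts on class II genes and Nlrc5 on class I genes. The RefSeq promoter table for GRCm38.p6 (250 bases before to 50 bases after each start, 300 bases in all) held 31 of the 40 members, and none for H2-Ab1, H2-Q1, H2-T10 or Ciita. An X box core spelled GNNACNGAT, searched on both strands, was found in 18 of the 31 members and in 7.82% of all 32851 promoters. The Y box CCAAT, on either strand, was in 28 of the 31 and in 37.4% of all promoters. With the X box core upstream of ATTGG, the inverted Y box, and 32 or 33 bases between their first bases, a spacing that was read from these members and is therefore no test, 10 promoters of the 32851 (0.0304%) matched, of which 8 were members: H2-DMb1, H2-Eb1, H2-Eb2, H2-D1, H2-M3, H2-Q4, H2-Q6 and H2-Q7. The stretches below are shown because genes that share this arrangement went different ways in the data that follow; capitals mark the X box core and the inverted Y box, and each stretch runs 5′ to 3′ along the gene. H2-Eb1 and H2-DMb1 are class II, at chr17:34305768-34305820 and chr17:34153089-34153142. H2-D1, H2-Q4, H2-Q6 and H2-Q7 are class I, at chr17:35262977-35263030, chr17:35379497-35379550, chr17:35424731-35424783 and chr17:35439075-35439127, all on the plus strand. In H2-Aa (class II, chr17:34287859-34287912, minus strand) only the inverted Y box matched.
H2-Eb1: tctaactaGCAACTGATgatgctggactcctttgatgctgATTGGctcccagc
H2-DMb1: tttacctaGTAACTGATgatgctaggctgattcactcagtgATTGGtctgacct
H2-Aa: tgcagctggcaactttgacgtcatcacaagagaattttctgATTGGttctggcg
H2-D1: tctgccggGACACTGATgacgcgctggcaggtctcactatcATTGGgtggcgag
H2-Q4: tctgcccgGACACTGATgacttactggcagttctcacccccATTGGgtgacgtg
H2-Q6: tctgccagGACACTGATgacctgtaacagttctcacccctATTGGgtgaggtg
H2-Q7: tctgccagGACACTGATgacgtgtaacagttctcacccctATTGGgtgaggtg

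Levels are given as TPM, a transcript abundance that is corrected for gene length and sums to 1000000 in each liver; TPM hold no counts per gene, so the spread between mice is the only error given. Yap1 was at 28.2 to 30.5 TPM in WT (C57BL/6), 1.67 to 3.72 in YAP KO, 31.0 to 33.2 in WT (mixed) and 8.63 to 11.5 in YAP KO TAZ HET livers. Wwtr1 stood at 6.26 to 6.83, 13.3 to 16.7, 7.73 to 8.38 and 11.5 to 14.1 TPM in the same order, so it was not lower in the livers with 1 deleted copy than in their littermates; gene-level TPM does not tell a deleted from an intact allele. Hepatocyte genes such as Alb and Hnf4a were abundant in all 12 livers. Of the 40 members, 26 had at least 1 TPM in at least 3 of the 12 livers and were tested. Of the rest, 9 nonclassical genes (H2-M10.1 to H2-M10.6, H2-M11, H2-M5 and H2-M9) were listed at 0 in every liver, and H2-Eb2, H2-Oa, H2-M1, H2-M2 and H2-T3 were too low. Together the members made up 0.576 to 1.07% of all TPM.

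A set of 3 mixed-background mice stood apart from the other 9 in this region, and several results below rest on them. In LM227 (WT), LM250 and LM251 (both YAP KO TAZ HET), H2-K1, H2-T23, H2-T22, H2-Q5, H2-Q7 and H2-Q10 were each below, and H2-T10 above, their values in every other liver, both in TPM and after scaling the libraries to each other. H2-Bl was above after scaling only, and B2m and H2-Ob were below in TPM only. After scaling these were 8 of the 26 tested members and 0 of the 9 class II genes among them. On that scale, across the 12159 genes tested, 62 (0.51%) separated the same 3 mice from the rest, but 26 of 630 (4.13%) did so on chromosome 17, against 36 of 11529 (0.312%) elsewhere. Of those 26, 25 lay between 24 and 37 Mb, and they included Rps18 (4.33 to 12.1 TPM in the 3 mice and 244 to 726 in the others), Rps2 (94.0 to 109 against 497 to 1015) and Tap1, the peptide transporter of class I. This grouping was noticed after the values were seen and carries no test. As background, C57BL/6 and FVB mice carry different H2 haplotypes (b and q), the H2 region is among the most variable of the genome, and reads were aligned to a C57BL/6-based reference. The labels do not give the H2 haplotype of any mixed mouse, and its part in these values was not tested.

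The class II genes rose in both models. Summed over the 11 class II genes, WT (C57BL/6) livers held 317, 310 and 229 TPM (mice LM75, LM192 and LM193, the order used throughout) and YAP KO livers 1136, 1204 and 832 TPM (LM74, LM189 and LM191). WT (mixed) livers held 278, 196 and 268 TPM (LM226, LM227 and LM230) and YAP KO TAZ HET livers 1518, 658 and 1212 TPM (LM225, LM250 and LM251). Neither model overlapped its littermates, and the means were 3.71-fold and 4.57-fold higher. In livers taken whole, more cells that make class II and more class II RNA per cell cannot be told apart.

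**Figure D1:**
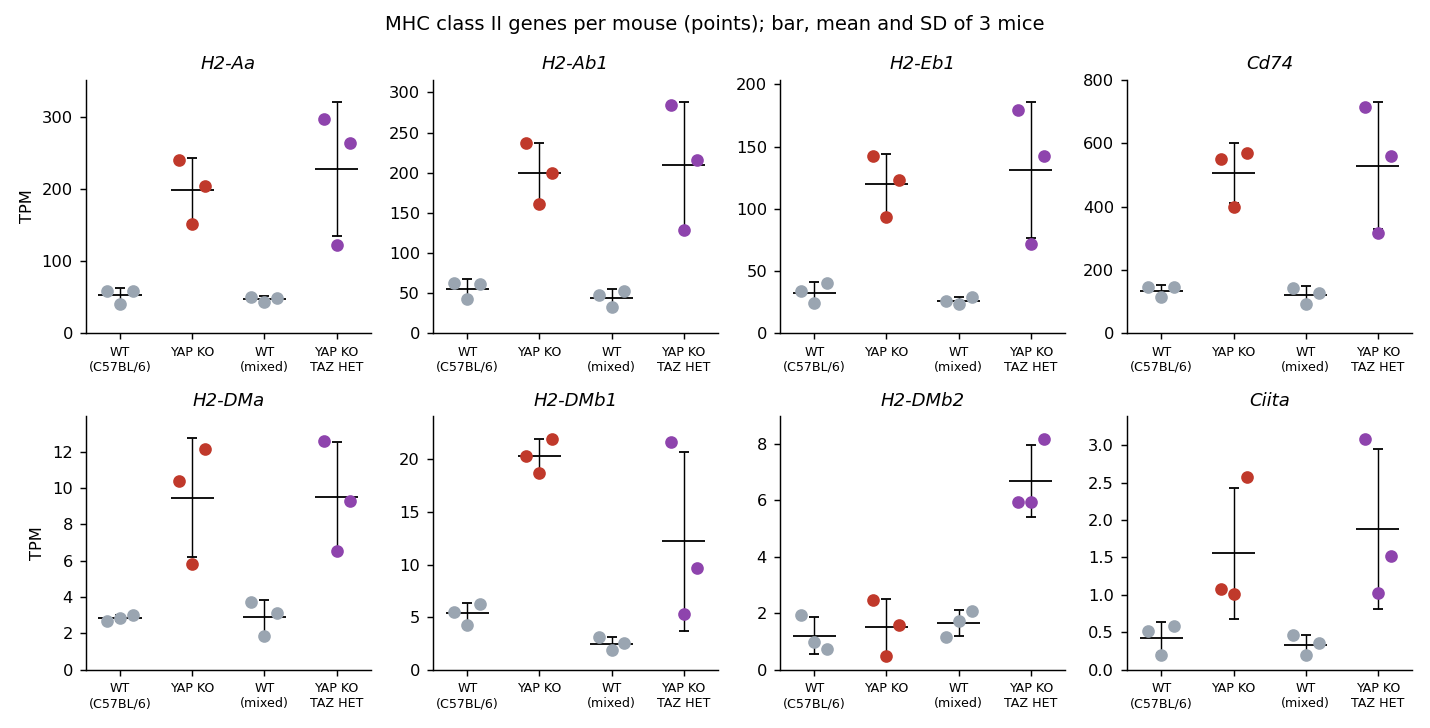
TPM of 8 class II pathway genes in each of the 12 livers (points, 3 mice a group), with the group mean and SD as bars, on linear axes that start at 0. For H2-Aa, H2-Ab1, H2-Eb1, Cd74, H2-DMa and H2-DMb1 every liver of a model lay above every WT liver of its background, while H2-DMb2 separated in the mixed background and overlapped in C57BL/6.

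H2-Aa, the alpha chain of the I-A molecule (chr17:34282744-34287823), was at 58.9, 57.9 and 40.6 TPM in WT (C57BL/6), 204, 240 and 151 in YAP KO, 50.4, 42.7 and 49.0 in WT (mixed) and 297, 122 and 264 in YAP KO TAZ HET livers. Its partner H2-Ab1, the I-A beta chain (chr17:34257689-34269419), was at 61.7, 62.3 and 42.1, then 200, 237 and 161, then 47.8, 32.8 and 52.4, then 285, 129 and 216 TPM. The lowest liver of either model held more of each chain than the highest WT liver, and LM250 was the lowest of the YAP KO TAZ HET livers for both. H2-Eb1, the I-E beta chain, whose partner gene is annotated here as the pseudogene H2-Ea-ps, was at 40.3, 33.4 and 23.9, then 123, 142 and 93.7, then 26.0, 23.1 and 28.7, then 180, 71.6 and 142 TPM. Cd74 was the most abundant class II gene, at 144, 144 and 113, then 571, 549 and 398, then 143, 90.4 and 127, then 713, 315 and 561 TPM.

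These 4 genes kept nearly fixed proportions while their levels moved. Within single livers the ratio of H2-Ab1 to H2-Aa TPM ranged from 0.768 to 1.08, that of H2-Eb1 to H2-Aa from 0.516 to 0.685 and that of Cd74 to H2-Aa from 2.12 to 2.85 across all 12 mice. Fold changes below are log2 differences of TPM after scaling the libraries to each other, with 1 added, tested with limma over all 12159 genes and called at a Benjamini-Hochberg adjusted p under 0.05. In YAP KO livers Cd74 rose by 1.55 ± 0.16 (log2, SE; adjusted p = 0.00027), H2-Aa by 1.54 ± 0.20 (adjusted p = 0.00095), H2-Eb1 by 1.50 ± 0.22 (adjusted p = 0.0015) and H2-Ab1 by 1.48 ± 0.20 (adjusted p = 0.00093). In YAP KO TAZ HET livers the same genes rose by 1.76 ± 0.28, 1.83 ± 0.29, 1.89 ± 0.29 and 1.85 ± 0.28, in that order, with limma adjusted p between 0.0019 and 0.0026.

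The peptide editor H2-DM followed, with 1 exception. H2-DMa, its alpha chain, was at 3.04, 2.66 and 2.84 TPM in WT (C57BL/6), 12.2, 10.4 and 5.83 in YAP KO, 3.72, 1.88 and 3.11 in WT (mixed) and 12.6, 6.53 and 9.31 in YAP KO TAZ HET livers, and rose by 1.09 ± 0.22 and 1.15 ± 0.24 on the log2 scale (limma adjusted p = 0.0061 and 0.0074). H2-DMb1, a beta chain, was at 6.26, 5.51 and 4.27, then 21.9, 20.4 and 18.7, then 3.11, 1.83 and 2.51, then 21.7, 5.27 and 9.70 TPM. It rose by 1.44 ± 0.15 (limma adjusted p = 0.00027) and by 1.48 ± 0.39 (adjusted p = 0.020), the second call being lost without LM227 (1.35) or LM251 (1.50). H2-DMb2, the second beta chain gene, was at 0.718, 1.94 and 0.972, then 1.60, 2.47 and 0.488, then 1.15, 1.74 and 2.08, then 5.96, 5.94 and 8.16 TPM. The YAP KO livers overlapped their littermates at -0.05 ± 0.32 log2 (adjusted p = 0.92), a sign that turned without scaling (0.14), without LM192 (0.18) and without LM191 (0.26). In YAP KO TAZ HET livers H2-DMb2 rose by 1.29 ± 0.20 (limma adjusted p = 0.0024), but the difference between the 2 models did not pass (-1.34 ± 0.42, adjusted p = 0.90). The 2 beta chain transcripts are 95.9% identical over 74.4% of the H2-DMb1 transcript, so reads may have been assigned to either, and their sum was 6.98, 7.46 and 5.25, then 23.5, 22.8 and 19.2, then 4.26, 3.57 and 4.59, then 27.6, 11.2 and 17.9 TPM, with no overlap between a model and its littermates.

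Ciita, the coactivator that class II transcription depends on (chr16:10480059-10528418), was low everywhere. It stood at 0.580, 0.514 and 0.192 TPM in WT (C57BL/6), 2.57, 1.08 and 1.02 in YAP KO, 0.458, 0.198 and 0.352 in WT (mixed) and 3.08, 1.03 and 1.53 in YAP KO TAZ HET livers. All 6 model livers and 0 of the 6 WT livers reached 1 TPM, so Ciita entered the test only through the livers in which it was high, and its values are given as a description of these mice. Against littermates its log2 change was 0.63 for YAP KO and 0.91 for YAP KO TAZ HET livers. LM74 and LM225 held the most Ciita of their groups, and LM225 also the most H2-Aa, H2-Ab1, H2-Eb1 and Cd74 of all 12 mice. H2-Ob, part of the H2-DM inhibitor H2-O, and H2-Ea-ps stayed at or below 1.28 and 2.42 TPM and were not called in either model.

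As a class, 6 of the 9 tested class II genes rose in YAP KO livers and 0 fell, where 18.7% of all genes tested were called higher and 17.3% lower; the median log2 change was 1.44 for the class and -0.03 over all 12159 genes. In YAP KO TAZ HET livers 7 of 9 rose and 0 fell, against 19.2% of all genes higher and 18.4% lower, with a median of 1.48 for the class and -0.03 over all genes. Calls for Cd74, H2-Aa, H2-Ab1, H2-Eb1 and H2-DMa were the same in both models under each of the other filters, scalings and fits tried and with any 1 mouse left out. Leaving out LM227, LM250 and LM251 together, an alternative added after the data were seen, leaves 1 YAP KO TAZ HET liver (LM225) against 2 WT, with the spread of the lone liver assumed to be like that of the others, so the calls it gives are not used here; H2-DMb2 lost its call there (1.13). Between the WT groups 0 of the 9 was called by limma (H2-DMb1 alone had an unadjusted p under 0.05), where 0.173% of all genes were called, and in the limma test of the difference between models 0 of the 9 was called (H2-DMb2 alone had an unadjusted p under 0.05).

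**Figure D2:**
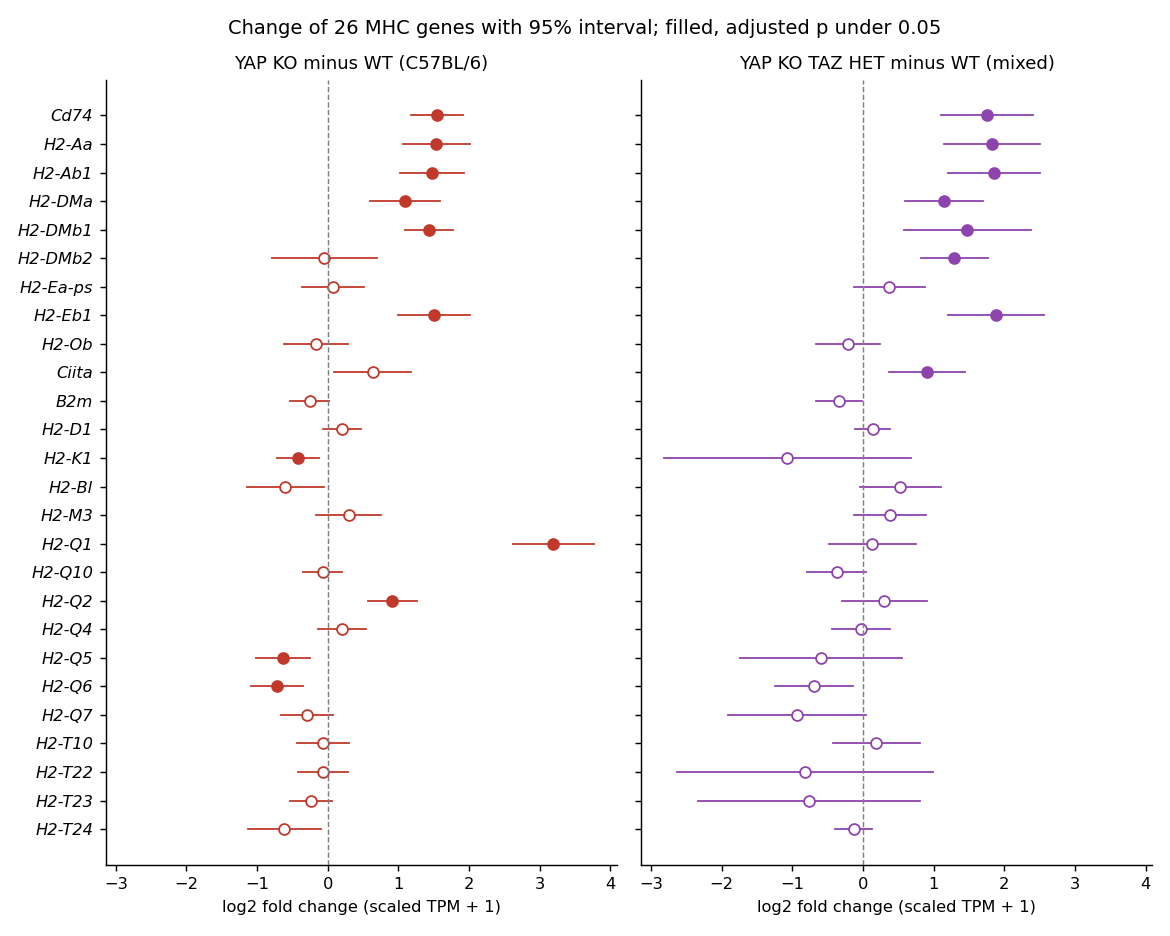
Log2 fold change of each of the 26 tested members on the scaled TPM + 1 scale with its 95% interval, YAP KO against WT (C57BL/6) on the left and YAP KO TAZ HET against WT (mixed) on the right; filled points had a limma adjusted p under 0.05. Ciita is filled on the right but entered only through the model livers. For some class I genes the side of 0 depends on the scaling: H2-K1 in YAP KO reads 0.02 after quantile normalization and B2m in YAP KO 0.10 without scaling.

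The genes around class II moved in part. Of 8 tested genes of class II loading and the lysosome, 6 rose in each model and 0 fell, with medians of 0.62 and 0.52. Ctss, the protease that trims Cd74, had mean TPM of 47.2 in WT (C57BL/6) and 181 in YAP KO, and 50.0 in WT (mixed) and 169 in YAP KO TAZ HET livers, and rose by 1.55 (limma adjusted p = 0.0001) and 1.50 (adjusted p = 0.0072). Lgmn, another Cd74-processing protease, rose by 1.41 and 1.61, and Cd63, a tetraspanin of the loading compartment found in many other cells too, by 4.05 and 4.11 from means of 4.51 and 4.50 TPM. Ifi30, the thiol reductase of this compartment, was listed at 0 in all 12 livers. Of 3 tested costimulation genes, Cd86 rose by 0.81 and 0.84, and Cd274 was not called. The third, Icosl, was at 0.263 to 0.573 TPM in the WT and 3.46 to 6.43 TPM in the model livers, and it entered the test only through the latter. Of 16 genes of transcriptional control of MHC, 3 rose and 1 fell in YAP KO, and in the other model 2 rose and 0 fell, shares near or below those of all genes given above for each direction. Irf8, a factor of macrophages and dendritic cells, rose in both (1.06, limma adjusted p = 0.0017; 0.80, adjusted p = 0.0094), whereas Rfx5, Rfxap and Rfxank, the subunits of the X box factor, were called in neither.

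Most macrophage and all 3 pan-leukocyte markers rose with class II in both models, whereas no B cell marker was called. Of all genes tested, 18.7% were called higher and 17.3% lower in YAP KO, and 19.2% and 18.4% in YAP KO TAZ HET. The summed level of 10 Kupffer cell and macrophage genes, of which 9 rose in each model, was 401 to 520 TPM in WT (C57BL/6), 1091 to 1545 in YAP KO, 351 to 718 in WT (mixed) and 1552 to 1666 in YAP KO TAZ HET livers. Clec4f, a defining Kupffer cell gene, had mean TPM of 77.5, 144, 83.4 and 204 in these groups, and Timd4 was called in neither model. The 3 pan-leukocyte genes rose in both models (sums of 24.3 to 29.5, 73.1 to 111, 24.8 to 37.2 and 85.5 to 98.0 TPM). Of 6 monocyte and neutrophil genes, YAP KO livers showed 6 and YAP KO TAZ HET livers 3 that were called higher (10.5 to 15.8, 53.1 to 61.3, 6.29 to 9.01 and 14.9 to 60.3 TPM). The 9 dendritic cell genes summed to 6.82 to 7.61, 9.43 to 17.7, 6.23 to 7.65 and 9.82 to 16.0 TPM; 4 were tested, of which YAP KO livers showed 1 and YAP KO TAZ HET livers 2 that were called higher, and the defining Xcr1 and Flt3 had group means below 1 TPM. Among these called genes Itgam, Ccr2 and Itgax were below 1 TPM in all 6 WT livers and entered only through the model livers, so the monocyte and dendritic cell counts are descriptions. Of 5 B cell genes 2 were tested and 0 called by limma in either model (Cd79a alone had an unadjusted p under 0.05, lower in YAP KO), with sums of 1.83 to 8.63 TPM over all livers. Of 3 tested T and NK cell genes, Cd3g alone rose, in YAP KO TAZ HET, and 0 were called in YAP KO, adjusted or not (sums of 4.26 to 15.1 TPM). Within YAP KO TAZ HET, LM225, LM250 and LM251 held 1518, 658 and 1212 TPM of class II. In the same order they held 1552, 1612 and 1666 TPM of macrophage and 96.6, 85.5 and 98.0 of pan-leukocyte genes. Monocyte and neutrophil genes stood at 60.3, 14.9 and 22.8 TPM and dendritic cell genes at 14.7, 9.82 and 16.0. B cell genes stood at 1.83, 6.58 and 4.00 TPM and T and NK cell genes at 9.90, 6.25 and 7.23. Of 4 tested biliary genes, Sox9 and Spp1 rose in both models and Epcam fell in YAP KO TAZ HET, and 2 of 5 sinusoidal endothelial genes fell in each model. The part of these cells in the class II change was not tested.

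Class I heavy chains were called in both directions in 1 model and not called in the other. The 27 class I heavy chain genes together held 5151, 5080 and 4848 TPM in WT (C57BL/6), 5867, 6186 and 5361 in YAP KO, 4798, 2732 and 4334 in WT (mixed) and 5082, 3281 and 3280 in YAP KO TAZ HET livers. The lowest sums were those of LM227, LM250 and LM251. In YAP KO, 2 of the 15 tested heavy chains rose and 3 fell (median log2 change -0.07); these 5 were 33.3% of the heavy chains, where 36.0% of all genes tested were called, so the share was near the background. In YAP KO TAZ HET livers 0 of the 15 was called by limma (median -0.13), with H2-Q6 alone at an unadjusted p under 0.05, where 37.7% of all genes were called. Standard errors were larger there for genes such as H2-K1 (0.75 against 0.13 in YAP KO) and H2-T23 (0.68 against 0.13). The limma test of the difference between models called 1 of the 15, H2-Q1, where 0.0576% of all genes were called. For the other 14, of which H2-Bl alone had an unadjusted p under 0.05, no difference between the models was shown. The direction of some class I values depended on the scaling: without it, the median change of all genes moved to 0.28 and 0.25. In YAP KO 13 members of both classes, among them the class II genes called with scaling, were then called higher and 0 lower. Of all 12159 genes, 4484 were called higher and 853 lower in that setting.

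**Figure D3:**
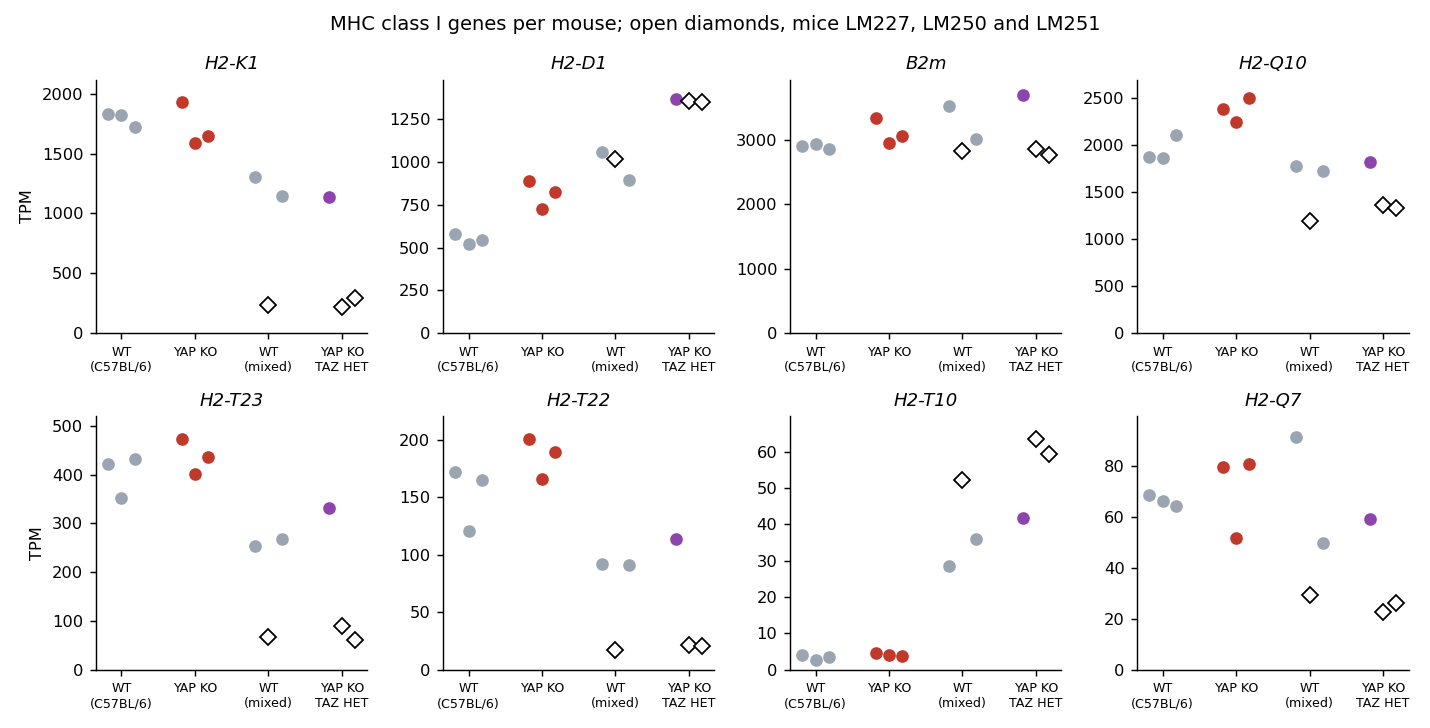
TPM of 8 class I genes in each liver on linear axes that start at 0; open diamonds are LM227, LM250 and LM251. The diamonds lie lowest for H2-K1, H2-Q10, H2-T23, H2-T22 and H2-Q7 and highest for H2-T10 within the WT (mixed) group and across all other mice, while H2-D1 does not set them apart. For B2m they also lie lowest in TPM, by a small margin.

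H2-K1, a classical heavy chain (chr17:33996017-34000347), was at 1723, 1829 and 1822 TPM in WT (C57BL/6) and 1649, 1931 and 1588 in YAP KO, and at 1304, 236 and 1149 in WT (mixed) and 1137, 221 and 296 in YAP KO TAZ HET livers. The deposited TPM of YAP KO and littermates overlapped. After scaling, H2-K1 fell by 0.42 on the log2 scale in YAP KO (-0.42 ± 0.13, limma adjusted p = 0.035), a call that was lost without scaling (-0.06), after quantile normalization (0.02), with no filter on low values, in 1 fit of all 12 livers and when any 1 of LM75, LM192, LM193, LM74 or LM191 was left out (-0.43 to -0.33); its adjusted p ranged from 0.016 to 0.89 over the alternatives. In the mixed background its interval was wide (-1.07 ± 0.75, limma adjusted p = 0.30), 1 of 3 WT and 2 of 3 YAP KO TAZ HET livers being among those that stood apart.

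H2-D1, the other classical heavy chain (chr17:35262730-35267499), was at 542, 578 and 522 TPM in WT (C57BL/6), 824, 889 and 723 in YAP KO, 1061, 1016 and 895 in WT (mixed) and 1369, 1355 and 1351 in YAP KO TAZ HET livers. The groups did not overlap in deposited TPM within either background, at mean ratios of 1.48 and 1.37. After scaling the log2 changes were 0.21 ± 0.12 and 0.14 ± 0.11 (limma adjusted p = 0.20 and 0.36), and without scaling 0.56 and 0.46, both past the threshold. In the setting without scaling 4484 and 4194 of all 12159 genes were called higher, and the median change of all genes was 0.28 and 0.25. The ratio of H2-D1 to H2-K1 within a liver does not depend on scaling: it was 0.315, 0.316 and 0.287 in WT (C57BL/6) and 0.500, 0.461 and 0.455 in YAP KO livers, 0.306 ± 0.016 against 0.472 ± 0.024 (SD, n = 3 each). The groups did not overlap, and the 2-sided exact permutation p of 0.1 is the smallest that 3 mice against 3 can give. In the mixed background the ratio was 0.814, 4.30 and 0.779 in WT and 1.20, 6.13 and 4.56 in YAP KO TAZ HET livers, and the groups overlapped. H2-D1 and H2-K1 transcripts are 91.3% identical over 64.1% of the H2-K1 transcript, so reads shared between them make the single values uncertain.

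B2m, the light chain of all class I molecules (chr2:122147686-122153083), was at 2859, 2905 and 2935 TPM in WT (C57BL/6), 3060, 3338 and 2956 in YAP KO, 3519, 2830 and 3020 in WT (mixed) and 3700, 2851 and 2767 in YAP KO TAZ HET livers. It was the gene with the highest level among the members in these livers, and it was not called in either model (-0.26 ± 0.12 and -0.34 ± 0.14, limma adjusted p = 0.14 and 0.098, with signs that turned to 0.22 and 0.10 after quantile normalization). The TPM of LM227, LM250 and LM251 were the 3 lowest, just under the 2859 of LM75, and after scaling they were no longer apart.

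**Figure D4:**
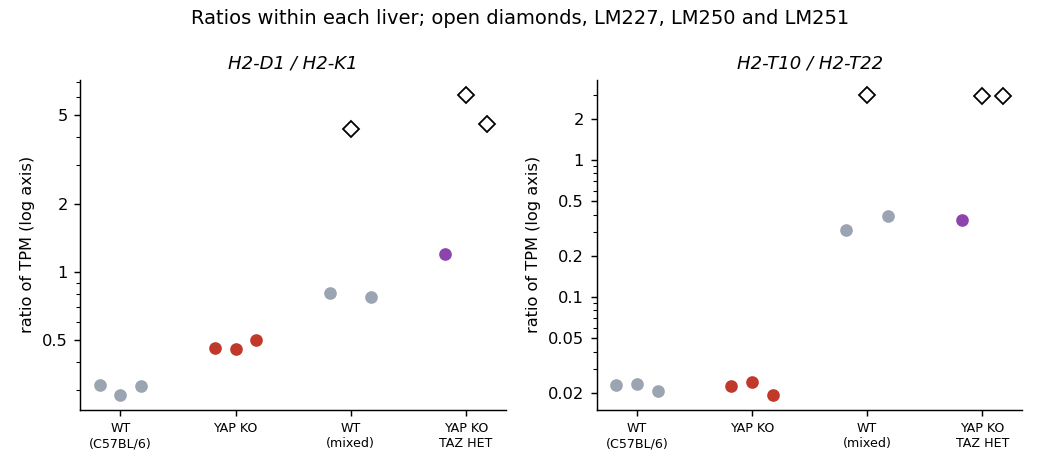
Ratio of H2-D1 to H2-K1 and of H2-T10 to H2-T22 TPM within each liver, on log axes; open diamonds are LM227, LM250 and LM251. The C57BL/6 mice lie between 0.287 and 0.500 for the first and between 0.0194 and 0.0242 for the second ratio, LM226, LM230 and LM225 lie above them, and the 3 diamonds lie highest, at 4.30 to 6.13 and 2.93 to 3.00.

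The nonclassical class I genes were dominated by H2-Q10, which made up 69.9 to 81.4% of their TPM in each liver. It was at 2110, 1870 and 1857 TPM in WT (C57BL/6), 2500, 2382 and 2243 in YAP KO, 1777, 1189 and 1726 in WT (mixed) and 1814, 1360 and 1330 in YAP KO TAZ HET livers, with scaled log2 changes of -0.07 and -0.37 that were not called. H2-T23, which encodes the natural killer cell ligand Qa-1, was at 432, 422 and 353, then 436, 474 and 401, then 254, 67.6 and 267, then 331, 89.2 and 61.5 TPM, and was not called in either model. H2-T22 and H2-T10, related genes whose products are recognised by gamma delta T cells, went opposite ways across mice. H2-T22 was at 165, 172 and 121, then 189, 201 and 166, then 91.9, 17.3 and 91.6, then 114, 21.5 and 20.2 TPM. H2-T10 was at 3.43, 3.93 and 2.80, then 3.67, 4.55 and 4.01, then 28.6, 52.1 and 36.0, then 41.7, 63.3 and 59.3 TPM. Their ratio fell into 3 separate sets: 0.0194 to 0.0242 in the 6 C57BL/6 mice, 0.311, 0.393 and 0.367 in LM226, LM230 and LM225, and 3.00, 2.95 and 2.93 in LM227, LM250 and LM251. These transcripts are 96.4% identical over 93.3% of H2-T22, and the part that assignment of reads to a C57BL/6-based reference has in the ratio was not tested.

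H2-Q1 (chr17:35320405-35325099) showed the largest change of the 26 tested members, and its change differed between the models. Its levels were 6.22, 3.13 and 4.45 TPM in WT (C57BL/6), 51.3, 73.2 and 62.3 in YAP KO, 33.8, 24.3 and 14.6 in WT (mixed) and 43.5, 27.6 and 26.1 in YAP KO TAZ HET livers. Each YAP KO liver lay above the other 9 livers, and WT (C57BL/6) lay below all others. H2-Q1 rose by 3.19 ± 0.25 in YAP KO (limma adjusted p = 7e-05), was at 0.13 ± 0.27 in YAP KO TAZ HET livers (adjusted p = 0.73; -0.15 without LM230 and -0.06 without LM225), and the 2 changes differed by 3.06 ± 0.40 (adjusted p = 0.014), where 0.0576% of all genes passed this test. That last call was lost, at differences of 2.83 to 3.06, when LM193, LM191, LM226, LM227 or LM251 was left out. The WT groups differed by 2.08 ± 0.29 (limma adjusted p = 0.062), a mean level 5.27-fold higher in WT (mixed) that was called without LM230.

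H2-Q2, a neighbour of H2-Q1, was at 0.523, 0.875 and 0.571 TPM in WT (C57BL/6), 2.74, 2.45 and 2.54 in YAP KO, 4.93, 6.10 and 3.47 in WT (mixed) and 6.53, 11.5 and 5.66 in YAP KO TAZ HET livers. It rose in YAP KO by 0.92 ± 0.15 (limma adjusted p = 0.0024) and was at 0.30 ± 0.26 in YAP KO TAZ HET livers (adjusted p = 0.40), and the test of the difference did not pass (0.61 ± 0.31, adjusted p = 0.999). H2-Q6 and H2-Q5, whose transcripts are 94.3% identical over 52.2% of H2-Q5, went the other way in YAP KO. H2-Q6 was at 30.9, 47.7 and 32.7 TPM in WT (C57BL/6) and 29.6, 30.2 and 24.5 in YAP KO livers, and fell by 0.72 on the log2 scale (limma adjusted p = 0.010; -0.37 and not called without scaling). H2-Q5 was at 4.69, 7.54 and 5.22 and at 5.22, 3.96 and 3.84 TPM, and fell by 0.64 (limma adjusted p = 0.019), a call lost without scaling (-0.34) or without LM192 (-0.48), LM189 (-0.62) or LM191 (-0.59). In the mixed background H2-Q6 was at 51.9, 25.3 and 31.6 against 35.0, 24.4 and 21.6 TPM (-0.69 ± 0.24, limma adjusted p = 0.054) and H2-Q5 at 4.38, 1.52 and 2.81 against 5.94, 1.08 and 0.638 TPM. With LM227 left out, H2-Q6, H2-Q7 and H2-Q10 were called lower in YAP KO TAZ HET and H2-Bl higher (0.81). With LM225 left out, H2-Q5, H2-Q6, H2-Q7 and B2m were called lower there. Leaving out LM225 keeps only LM250 and LM251, and leaving out LM227 removes the WT liver that stood apart with them. Genotype and that grouping cannot be told apart in these calls. The members called without LM225 were 12 in place of 8, where 4538 of all 12159 genes were called. The 8 include Ciita.

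H2-Q7, which encodes Qa-2, was at 22.8 to 91.4 TPM over all livers and was not called in either model with all mice. H2-Q4 was at 54.6 to 108 TPM, H2-M3, which presents formylated bacterial peptides, at 2.52 to 8.71, H2-T24 at 1.95 to 4.89 and H2-Bl at 0.0808 to 4.82, and none of them was called in any of the 4 comparisons with all mice. Of the members listed above with the promoter arrangement, H2-Eb1 and H2-DMb1 rose in both models, and H2-Q6 fell in YAP KO with scaling. H2-D1, H2-M3, H2-Q4 and H2-Q7 were not called in either model with all mice and scaling, and H2-Eb2 was too low to be tested. The part of the arrangement in these changes was not tested. Of the 15 tested heavy chains 11, and of the 9 class II genes 2, had another H2 transcript at 90% identity or more over at least 30% of their length, so reads shared between genes could touch more of the class I than of the class II values.

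Between the WT groups 3 of the 26 members differed, where 0.173% of all genes were called. Levels in WT (mixed) were higher for H2-T10 (3.10 ± 0.23, limma adjusted p = 0.0017), H2-Q2 (1.76 ± 0.18, adjusted p = 0.013) and H2-D1 (0.79 ± 0.10, adjusted p = 0.034). H2-D1 lost its call when any 1 of the 6 WT mice was left out, H2-Q2 without LM192, LM193 or LM226, and H2-T10 kept it each time, so the count was 1 without any of those 3 mice. Of the 23 others, 8 had an unadjusted p under 0.05. The WT groups are littermates of 2 separate crosses, so background and set of animals cannot be told apart. None of the 3 was called in YAP KO TAZ HET against WT (mixed), and of the 3 only H2-Q2 was in YAP KO.

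**Figure D5:**
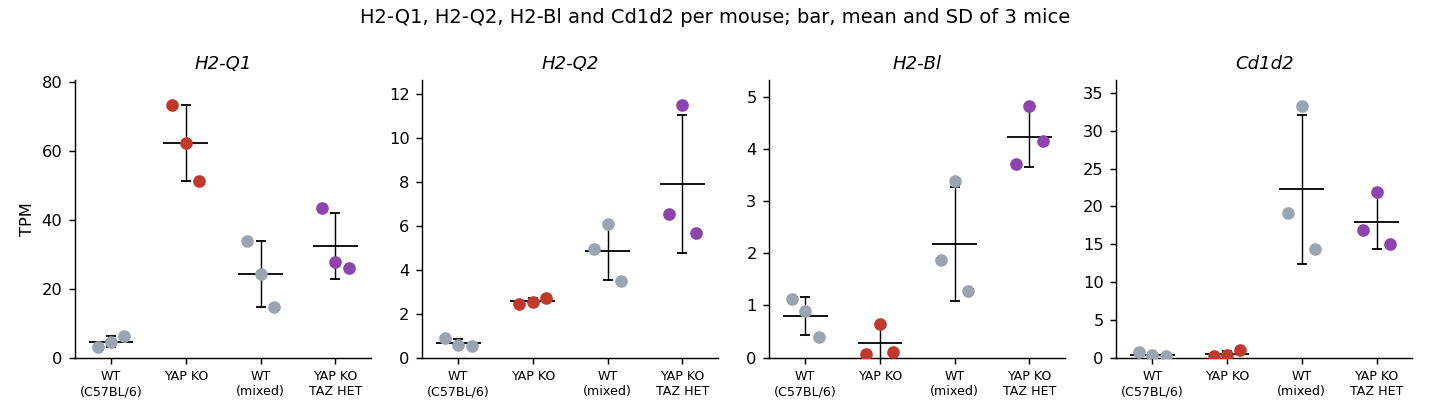
TPM of H2-Q1, H2-Q2, H2-Bl and the class I-like gene Cd1d2 in each liver (points), with the mean and SD of 3 mice as bars, on linear axes that start at 0. H2-Q1 and H2-Q2 are higher in YAP KO than in WT (C57BL/6) and higher in both mixed groups than in WT (C57BL/6); Cd1d2 is near 0 in both C57BL/6 groups.

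The 13 genes of class I loading and peptide supply summed to 1457 to 1649 TPM in WT (C57BL/6), 2040 to 2270 in YAP KO, 1391 to 1711 in WT (mixed) and 2149 to 2383 in YAP KO TAZ HET livers, without overlap between a model and its littermates. These sums were weighted to the most abundant genes, Calr (group means of 511, 852, 539 and 915 TPM) and Pdia3 (288, 418, 274 and 414). Tap1 had means of 19.5, 20.1, 15.8 and 20.1 TPM and Tap2 of 20.25, 26.2, 31.4 and 44.8, so the sums do not stand for each gene. After scaling 1 rose and 4 fell in YAP KO, and in the other model 0 rose and 1 fell, with medians of -0.12 and -0.06, where 18.7% of all genes were called higher and 17.3% lower in YAP KO and 19.2% and 18.4% in the other model. Without scaling 5 were called higher and 0 lower in each model. In that setting 4484 of all 12159 genes were called higher and 853 lower in YAP KO, and 4194 and 895 in YAP KO TAZ HET. Calr, a chaperone of heavy chain folding, rose by 0.38 in YAP KO (limma adjusted p = 0.042), while Erap1, which trims peptides, fell by 0.34 (adjusted p = 0.024) and by 0.42 (adjusted p = 0.045) in the 2 models, and the immunoproteasome subunits Psmb9 and Psmb10 fell by 0.66 and 0.40 in YAP KO and were not called in the other model. Without scaling none of these falls was called: mean TPM was 36.3 in WT (C57BL/6) and 36.5 in YAP KO for Erap1 (38.1 and 35.8 in the mixed groups), 79.4 and 77.1 for Psmb10, and 23.7 and 18.5 for Psmb9. After quantile normalization Psmb9 was still called lower in YAP KO (-0.63, limma adjusted p = 0.038), whereas Erap1 and Psmb10 were not called. Nlrc5, the class I counterpart of Ciita, was at group means of 5.28, 6.38, 5.37 and 7.99 TPM and was called in neither. Of 18 interferon response genes, 1 rose and 3 fell in YAP KO, and in the other model 2 rose and 4 fell. Without scaling 3 and 1, and 7 and 1, were called higher and lower, beside the counts of all genes given above for that setting. Igtp, an interferon gamma-induced GTPase, fell by 1.47 in YAP KO (limma adjusted p = 0.00068), and Irf1 was called in neither model.

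Class I-like genes outside the H2 region, which use the same fold, were mixed. Of 7 tested, 2 rose, Procr among them, and 2 fell in each model. Of all genes tested, 18.7% were called higher and 17.3% lower in YAP KO, and 19.2% and 18.4% in YAP KO TAZ HET. Cd1d1, which presents lipids to natural killer T cells, fell by 0.88 and 0.76, and Fcgrt, the neonatal Fc receptor, by 0.66 and 0.70, with limma adjusted p between 0.0012 and 0.0064. Hfe, which controls hepcidin, rose by 0.43 and 0.35. Procr, the protein C receptor, was at 0.219 to 1.13 TPM in the WT and 2.79 to 4.94 TPM in the model livers. It passed the filter mainly through the latter, so its rise of 1.10 and 1.50 is given as a description. Cd1d2 was not called in either model, but it was called between the WT groups, at mean levels of 0.405 TPM in C57BL/6 and 22.3 TPM in mixed mice (3.95 log2, limma adjusted p = 0.0016).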

How the data were processed

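RNA from 12 livers was analysed. CLC Genomics Workbench was used by the authors to align reads to GRCm38.p6 and to count them per gene, and they deposited TPM per gene and mouse in 2 tables, 1 for each model with its littermates. The tables also hold the authors' own comparisons (fold changes, p-values and false discovery rates, made with edgeR), which were not used. Every TPM column matched a sample, and 0 pairs of libraries were identical. Replicates are separate mice.

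Genes that reached 1 TPM in 3 or more of the 12 livers were kept. Libraries were scaled by a trimmed mean of log ratios (30% of ratios and 5% of levels trimmed), and log2(scaled TPM + 1) was tested with limma 3.58.1 in R 4.3.3 (two-sided, Benjamini-Hochberg over all genes tested), on the 6 libraries of each pair of groups and, for the difference between models, on all 12. TPM are not counts, so no count test was run, and fold changes of low genes are understated. The fit was tested on simulated data. Transcripts were compared with blastn 2.17.0 on GENCODE M21, and promoters searched in the RefSeq table. Named with values in every mouse were H2-K1, H2-D1, B2m, H2-Aa, H2-Ab1, H2-Eb1, Cd74, Ciita, H2-DMa, H2-DMb1, H2-DMb2 and nonclassical genes past the threshold in any comparison; H2-Q10, H2-T22 and H2-T23 were added after their values were seen. Members, gene lists and markers were chosen with earlier results of these data known. Alternatives were a pseudocount of 0.1, no filter, 5 TPM, a filter on the libraries of the fit, no scaling, quantile normalization, robust shrinkage, 1 fit of all 12 libraries and leaving out each mouse. P-values measure the spread between mice only.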

Additional observations from a re-analysis of the deposited data

Results flagged for a closer look

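H2-Q1 stood out by the test of the difference between the models: the rise in YAP KO livers was larger by 3.06 on the log2 scale than the change in the other model (limma adjusted p = 0.014). The adjusted p ranged from 0.0078 to 0.53 over the alternatives tried.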

How the results depend on the processing

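No paired analysis was possible because the mouse numbers in the labels are not shared between groups. The number of members called was 11 in YAP KO (9 to 11 with 1 mouse left out; 42.3% of 26, against 36.0% of all genes) and 8 in YAP KO TAZ HET, Ciita included (7 to 12; 30.8% against 37.7%). Between WT groups it was 3 (1 to 3), and for the difference between models 1 (0 to 1; 0 with no filter on low values and 0 without LM227, LM250 and LM251, chosen after the data were seen and leaving 1 YAP KO TAZ HET liver, assumed to vary like the others). Of 1019 values of the named members under the alternatives, 922 kept direction and call, 36 lost and 16 gained a call, and 45 changed sign; those 45 belong to values that were not called, except H2-K1. In YAP KO, quantile normalization gave 0.022 for H2-K1 and 0.22 for B2m, and no scaling gave 0.10 for B2m, 0.14 for H2-DMb2 and 0.22 for H2-T10; with 1 mouse left out H2-DMb2 ranged from -0.33 to 0.26 and H2-T10 from -0.17 to 0.035. In YAP KO TAZ HET, quantile normalization gave 0.10 for B2m, leaving out LM227, LM250 and LM251 gave 0.30 for H2-Q5 and -0.011 for H2-T10, and 1 mouse left out gave -0.15 to 0.36 for H2-Q1 and -0.048 to 0.43 for H2-T10. Between WT groups, leaving out those 3 mice gave 0.14 for H2-DMa and 0.076 for H2-Q6, and 1 mouse left out gave -0.0042 to 0.092 for B2m, -0.17 to 0.14 for H2-DMa and -0.37 to 0.075 for H2-Q6. For the difference between models, quantile normalization gave -0.10 for H2-D1, 0.036 for H2-DMb1 and 0.021 for H2-Q5; no scaling gave 0.019 for H2-DMb1, 0.038 for H2-Q5 and 0.0098 for H2-Q6; a pseudocount of 0.1 gave 0.22 for H2-Q5; leaving out the 3 mice gave -0.061 for B2m. With 1 mouse left out it ranged from -0.040 to 0.12 for H2-D1, -0.011 to 0.17 for B2m, -0.26 to 0.20 for H2-DMa, -0.47 to 0.40 for H2-DMb1, -0.43 to 0.52 for H2-Q5 and -0.28 to 0.17 for H2-Q6. The cause of these sign changes was not tested. TPM hold no counts per gene, so the counting error, largest for low genes, cannot be given.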
